A study of Homo sapiens with 6 samples.

Results

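Receptor tyrosine kinases are the single-pass cell surface receptors through which growth factors, ephrins, collagens and some WNT proteins signal. The 41 genes described here were taken by name from a list of such receptors that leaves out the FGF receptors and AXL, and each had 1 entry among the 58735 of the count table. RNA came from MDA-MB-231, an established, mesenchymal-like human line from a triple-negative breast tumour. One group of 3 libraries (a, b and c) came from cells exposed for 72 h to DMSO, the vehicle, and the other group of 3 (also a, b and c) from cells exposed for 72 h to 2 µM Azeliragon, a drug-like antagonist of RAGE, the cell surface receptor encoded by AGER. Both conditions used the same line with no further genetic change named in the labels. The comparison asks which receptor transcripts the cells hold and which differ between Azeliragon and DMSO.

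Ligand binding brings receptor chains together, the kinase domains phosphorylate each other, and the phosphotyrosines recruit adaptors such as GRB2, SHC1 and the IRS proteins that lead to RAS, PI3-kinase and phospholipase C. Phosphatases, ubiquitin ligases and feedback inhibitors then switch the receptors off. In breast cancer EGFR, ERBB2, MET and EPHA2 are the best known members, and triple-negative tumours lack ERBB2 amplification.

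The 6 libraries held 41455979 to 44313584 counts, so that a single read was worth 0.0222 to 0.0241 CPM (reads scaled to library size, with TMM factors applied) and 3 reads, the limit that a count of 0 allows, 0.0665 to 0.0723 CPM. Markers of the line were abundant: VIM, CD44, FN1, KRT8, KRT18 and KRT19 together gave 4200 to 4760 CPM in DMSO and 4160 to 4290 CPM with Azeliragon, and 0 of 6 passed the edgeR test described below (1 of 6, KRT18, had an unadjusted p under 0.05). Of 4 markers expected to be absent, PGR had no reads and ESR1 and CDH1 had at most 14 reads in a library, but the epithelial gene EPCAM had 306 to 407 reads in each (8.97 CPM in DMSO and 8.14 CPM with Azeliragon). On the first principal component DMSO a, at -0.230, fell between its sister libraries DMSO b (30.1) and DMSO c (33.7) and the Azeliragon libraries, which ran from -23.0 to -19.0. Whether a, b and c were separate cultures is not given in the labels, so each p-value reflects no more than the variation among these 3 libraries a condition, part or all of which may be technical.

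Of the 41 receptors, 24 had a mean of at least 1 CPM in either condition and are called expressed here. The count was 25 at a level of 0.5 CPM and 18 at 5 CPM. The last gene inside the level of 1 CPM was TIE1, with 1.04 CPM in DMSO, and the first outside it was EPHB3, with 0.661 CPM. A further 2 receptors, EPHB3 and ALK, were tested on 142 and 66 reads over the 6 libraries. The remaining 15 did not pass the filter on low counts: PDGFRA, FLT1, FLT4, EPHA3, ROR2 and ROS1 had no read in any library, and NTRK2, EPHB6, EPHB1, NTRK3, ERBB4, EPHA7, TEK, KIT and RET had 52, 31, 13, 12, 5, 4, 3, 2 and 2 reads in all.

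Levels of different receptors were compared per length, as TPM computed from the counts and the merged exons of each gene. Merged exons exceed the longest transcript unevenly. They span 10321 against 4930 bases in ERBB2, 9122 against 4148 in DDR1, 12521 against 9821 in EGFR and 4159 against 3964 in EPHA2. The order, gaps and shares given here therefore hold for merged exons only and may differ with another length. EPHA2, a receptor for ephrin-A ligands on cell surfaces, led by a wide margin, with 368 TPM in DMSO (349 to 404 over 3 libraries) and 362 TPM with Azeliragon (357 to 365). It held 54.0% of all receptor TPM in DMSO and 52.6% with Azeliragon. EPHB4, the ephrin-B2 receptor, came next with 52.5 TPM in DMSO, and its 3 libraries lay above all 3 of PTK7 (34.3 TPM), the pseudokinase co-receptor of WNT signalling. PTK7, ERBB2 (33.0 TPM), the collagen receptor DDR1 (30.4 TPM), EGFR (29.1 TPM), the HGF receptor MET (25.4 TPM) and EPHB2 (22.0 TPM) followed, and each of these overlapped its neighbour in the order. Below EPHB2 came a gap that no DMSO library crossed, and then RYK (15.1 TPM), TYRO3 (13.9 TPM), IGF1R (10.5 TPM), MST1R (9.39 TPM), ROR1 (8.0 TPM), INSR (6.55 TPM), MERTK (5.83 TPM), LTK (5.32 TPM) and PDGFRB (4.33 TPM), each overlapping the next. CSF1R (2.33 TPM), KDR (1.57 TPM), EPHA4 (1.16 TPM), ERBB3 (1.07 TPM) and EPHA1 (0.875 TPM) formed the last run of overlapping receptors before TIE1, EPHB3 and DDR2, which were below 0.5 TPM in DMSO.

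**Figure D1:**
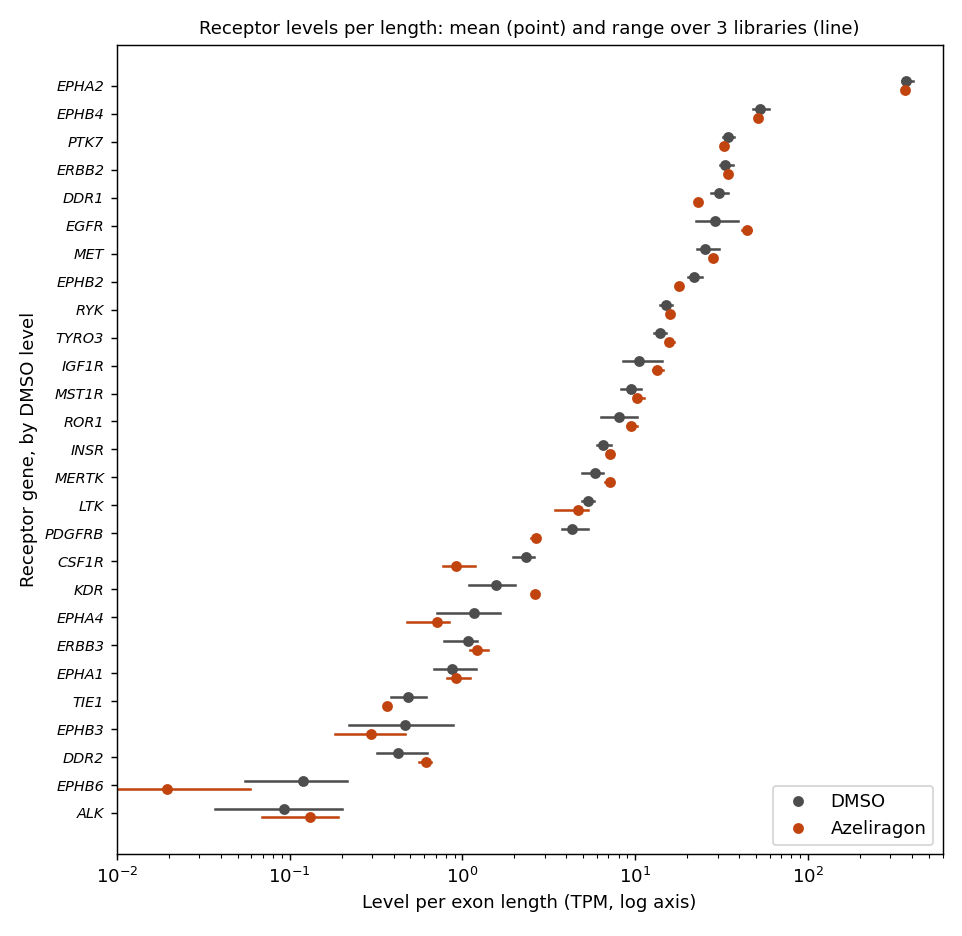
Level per exon length (TPM, log axis) of the 27 receptors with at least 0.05 TPM in DMSO, as the mean (point) and the range of 3 libraries (line) in DMSO (grey) and Azeliragon (orange); the EPHB6 line reaches 0 and is cut at the left edge. EPHA2 stands far to the right of the others at 368 TPM, and EGFR, KDR, CSF1R, PDGFRB, DDR1 and EPHB2 are the receptors whose conditions differ past the threshold.

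The summed receptor level did not separate the conditions. It was 767, 648 and 631 TPM in DMSO a, b and c and 688, 678 and 697 TPM in Azeliragon a, b and c, so the Azeliragon libraries lay between DMSO a and the other DMSO libraries. Shares of single families in this sum describe its make-up. The ERBB family held 9.22% ± 0.76 of receptor TPM in DMSO and 11.7% ± 0.20 in Azeliragon (SD, n = 3 each), the collagen receptors 4.51% ± 0.095 and 3.43% ± 0.073, and the PDGF receptor family 0.974% ± 0.056 and 0.519% ± 0.040. EPHA receptors held 54.3% and 52.8%, EPHB receptors 11% and 10.1%, and the WNT-binding group of ROR1, RYK and PTK7 8.42% and 8.45%. With Azeliragon EGFR moved from place 6 to place 3 in the order of means, DDR1 from 5 to 7 and CSF1R from 18 to 21.

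Of the 26 receptors tested, 2 were higher and 4 lower with Azeliragon, and 20 did not pass an adjusted p of 0.05 (edgeR's quasi-likelihood test, adjusted by Benjamini-Hochberg over 16081 genes). Across all genes tested 6.27% passed, 2.75% higher and 3.53% lower. EGFR and KDR rose, and CSF1R, PDGFRB, DDR1 and EPHB2 fell. The median log2 fold change of the 26 was 0.02, with 15 above and 11 below 0, where the median of all genes was -0.00. The libraries of the conditions did not overlap for 11 of the 26 receptors, 4 with Azeliragon above and 7 with Azeliragon below, where this held for 25.3% of all genes tested (12.1% above and 13.2% below). Among the 6 that passed, CSF1R was the only one past 2-fold.

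**Figure D2:**
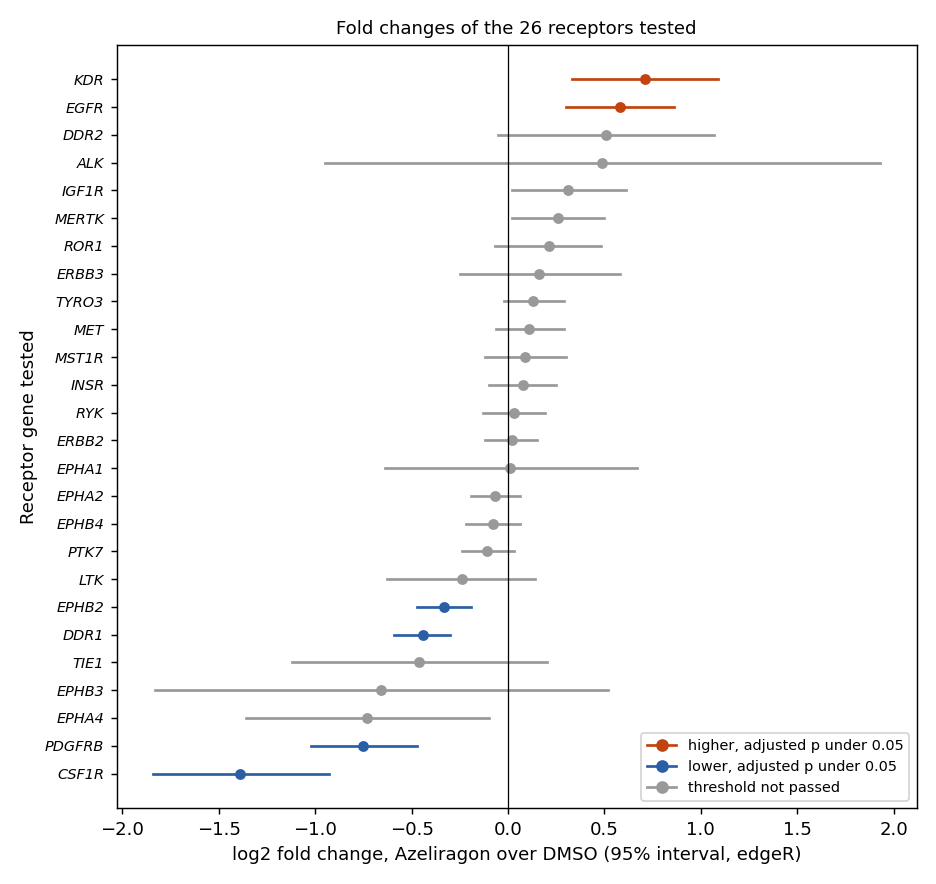
Log2 fold change (Azeliragon over DMSO, point) with its 95% interval (line) for the 26 receptors tested, orange where higher and blue where lower at an adjusted p under 0.05, grey otherwise. KDR (0.71) and EGFR (0.58) are at the top, CSF1R (-1.39) and PDGFRB (-0.75) at the bottom, and EPHB2 and DDR1 show smaller falls with narrow intervals.

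The ERBB family binds EGF-like ligands and neuregulins. EGFR (ENSG00000146648, chromosome 7, 55019021 to 55211628, plus strand, GRCh38, GENCODE 29) encodes the receptor for EGF, TGFA and AREG. It stood at 147, 105 and 95.4 CPM in DMSO a, b and c and at 176, 164 and 181 CPM in Azeliragon a, b and c. Every Azeliragon library lay above every DMSO library, and DMSO a was the closest to them. The means were 116 ± 28 and 174 ± 8.8 CPM (SD, n = 3 each), a 1.5-fold rise (log2 fold change 0.58, SE 0.13, 95% interval 0.30 to 0.86; edgeR adjusted p = 0.0174). Its share of receptor TPM was 5.10%, 3.99% and 3.56% in DMSO and 6.59%, 6.15% and 6.71% with Azeliragon. The log2 fold change was 0.79 without DMSO a. The call was lost without DMSO b (adjusted p = 0.116), Azeliragon a (0.0897), Azeliragon b (0.0513) or Azeliragon c (0.0804), with log2 fold changes of 0.52 to 0.62.

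ERBB2, which has no ligand of its own and pairs with the other members, was at 114, 104 and 109 CPM in DMSO against 108, 112 and 111 CPM with Azeliragon. Its log2 fold change was 0.02 with a 95% interval of -0.12 to 0.15 (edgeR adjusted p = 0.918), and the conditions overlapped. ERBB3, a neuregulin receptor with a weak kinase, was low at 3.26, 3.54 and 2.41 CPM and 3.19, 4.01 and 3.11 CPM (log2 fold change 0.16; adjusted p = 0.681). ERBB4 had reads in Azeliragon b and c only, 2 and 3. EGFR shares 186 exon bases with EGFR-AS1 and ERBB2 shares 765 with MIEN1 and PGAP3, on the opposite strand. DDR1 shares 90 with MIR4640 on its own strand and EPHB2 34 with MIR4253 on the other, while CSF1R, PDGFRB and KDR share none. The strand setting of the counting is not given in the sources used here, so reads in those bases cannot be told apart.

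**Figure D3:**
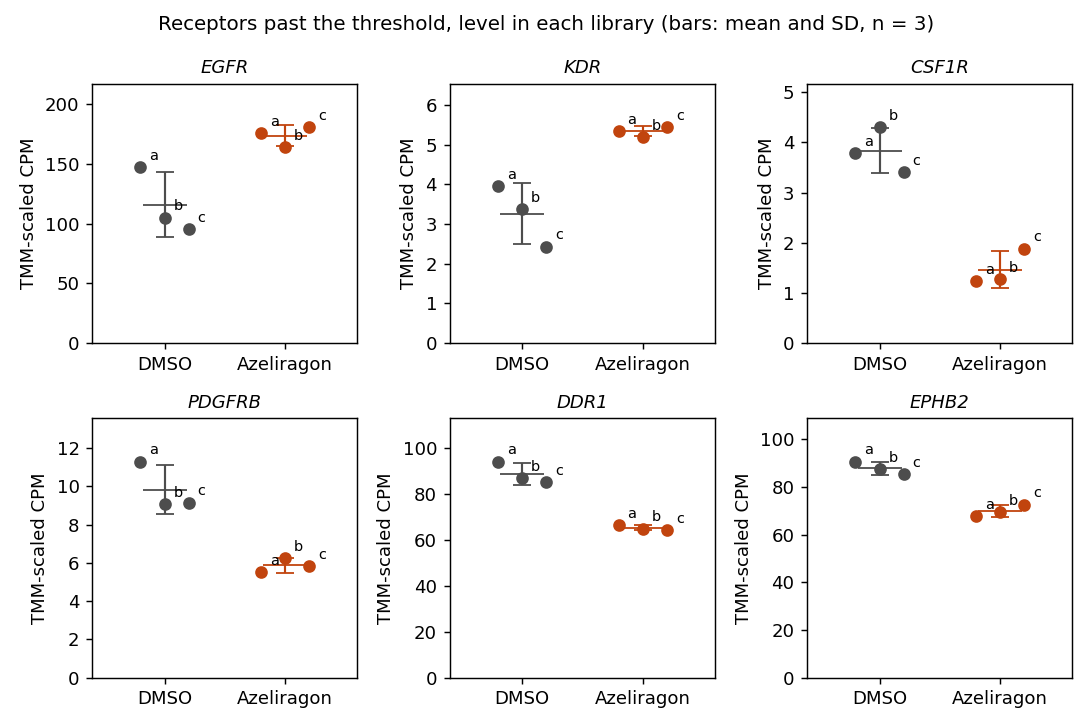
Level in each library (TMM-scaled CPM, linear axes from 0, letters a, b and c) of the 6 receptors past the threshold, with bars for the mean and SD of 3 libraries. The conditions do not overlap in any panel, and DMSO a is the DMSO library nearest to Azeliragon for EGFR and KDR and the farthest from it for PDGFRB, DDR1 and EPHB2.

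The PDGF receptor family comprises PDGFRA, PDGFRB, CSF1R and KIT, and both of its expressed members were lower. CSF1R (chromosome 5, 150053291 to 150113372, minus strand) encodes the receptor for CSF1 and IL34, best known from macrophages. Its libraries were at 3.79, 4.31 and 3.41 CPM in DMSO and 1.23, 1.28 and 1.88 CPM with Azeliragon, on 691 reads in all. The highest Azeliragon library was well below the lowest DMSO library, and the change was a 2.62-fold fall (3.83 ± 0.45 to 1.47 ± 0.36 CPM, SD, n = 3 each; log2 fold change -1.39, SE 0.21, 95% interval -1.84 to -0.93; edgeR adjusted p = 0.00185).

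PDGFRB (chromosome 5, 150113837 to 150155872, minus strand) encodes the receptor for PDGF-B and PDGF-D that marks pericytes and fibroblasts. It stood at 11.3, 9.06 and 9.15 CPM in DMSO and 5.51, 6.26 and 5.84 CPM with Azeliragon. The conditions again did not overlap, and the fall was 1.68-fold (9.85 ± 1.3 to 5.87 ± 0.37 CPM, SD, n = 3 each; log2 fold change -0.75, SE 0.13, 95% interval -1.02 to -0.47; edgeR adjusted p = 0.00386). PDGFRA had no reads, and KIT, the stem cell factor receptor, had 2 reads in Azeliragon c alone. In RNA of whole cultures, fewer cells that hold a transcript and less of it per cell cannot be told apart. CSF1R and PDGFRB were called in all 16 other settings tried, with log2 fold changes of -1.61 to -1.28 and -0.81 to -0.63.

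The 2 genes are neighbours: PDGFRB ends 464 bases from the start of CSF1R on the same strand, with no protein-coding gene between them and no shared exon bases with any annotated gene. The 5 other closest pairs of receptor genes are separated by 43787 bases (LTK and TYRO3) to 519194 bases (EPHB6 and EPHA1), and of their 9 genes EPHB1, PDGFRA, KIT and EPHB6 were not tested and KDR alone passed. KDR, which rose, lies 337543 bases from KIT.

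Sequences of 250 bases upstream of an annotated start are shown for the neighbours that fell and for EPHB2, EGFR and KDR, so that the start regions of receptors that fell and rose can be read side by side. They are from the RefSeq promoter table (build GRCh38.p14, which covered 39 of the 41 receptors with 63 windows), are written 5′ to 3′ in the direction of the gene, and carry in capitals every match on either strand to the E-box letters CAGGTG, to which SNAIL-type factors are known to bind, and to the AP-1 letters TGANTCA. CSF1R has 2 annotated starts: the outer one has its window at chr5:150113366-150113615 (minus strand), between the 2 genes, and the inner one at chr5:150086555-150086804 (minus strand). The PDGFRB window is chr5:150155846-150156095 (minus strand), that of EPHB2 chr1:22710588-22710837 (plus strand), that of the first EGFR start chr7:55018767-55019016 (plus strand) and that of KDR chr4:55125596-55125845 (minus strand).
CSF1R outer start: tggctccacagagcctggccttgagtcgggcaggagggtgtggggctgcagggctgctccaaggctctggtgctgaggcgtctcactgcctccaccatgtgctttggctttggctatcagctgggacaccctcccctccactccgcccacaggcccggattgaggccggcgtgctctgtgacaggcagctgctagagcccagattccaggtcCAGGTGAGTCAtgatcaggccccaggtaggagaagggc
CSF1R inner start: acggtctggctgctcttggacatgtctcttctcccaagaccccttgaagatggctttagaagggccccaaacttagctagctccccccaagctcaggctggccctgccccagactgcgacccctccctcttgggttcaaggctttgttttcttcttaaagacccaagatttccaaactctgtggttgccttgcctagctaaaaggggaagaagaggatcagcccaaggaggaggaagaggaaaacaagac
PDGFRB: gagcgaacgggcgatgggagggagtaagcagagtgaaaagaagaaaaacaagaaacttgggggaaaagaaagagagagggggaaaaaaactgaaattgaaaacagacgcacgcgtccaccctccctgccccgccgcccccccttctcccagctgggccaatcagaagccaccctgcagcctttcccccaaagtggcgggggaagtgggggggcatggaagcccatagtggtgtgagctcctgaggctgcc
EPHB2: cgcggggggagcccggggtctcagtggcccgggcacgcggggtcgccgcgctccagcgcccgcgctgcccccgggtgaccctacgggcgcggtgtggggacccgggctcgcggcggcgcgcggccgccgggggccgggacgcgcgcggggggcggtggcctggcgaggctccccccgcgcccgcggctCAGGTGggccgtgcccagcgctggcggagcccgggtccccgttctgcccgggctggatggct
EGFR first start: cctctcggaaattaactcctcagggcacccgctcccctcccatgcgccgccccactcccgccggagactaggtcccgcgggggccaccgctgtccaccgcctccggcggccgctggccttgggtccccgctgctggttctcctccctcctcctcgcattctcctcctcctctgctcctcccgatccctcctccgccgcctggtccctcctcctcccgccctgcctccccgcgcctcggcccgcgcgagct
KDR: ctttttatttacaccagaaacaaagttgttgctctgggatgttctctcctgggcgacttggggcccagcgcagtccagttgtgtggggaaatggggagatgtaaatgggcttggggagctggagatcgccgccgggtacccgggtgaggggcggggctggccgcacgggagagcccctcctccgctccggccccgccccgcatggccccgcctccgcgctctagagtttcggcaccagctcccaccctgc

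The outer CSF1R window holds 1 CAGGTG and 1 TGANTCA match that overlap, at positions -38 and -34 from the start, and the inner window holds neither. The EPHB2 window shown holds 1 CAGGTG match at position -62, and a second, nearly identical EPHB2 window holds the same match at -63. PDGFRB, KDR and the first EGFR start hold neither set of letters. A second EGFR start, with its window at chr7:55109589-55109838, holds 2 TGANTCA matches and no CAGGTG, and the 8 annotated starts of DDR1 include 3 with CAGGTG (at -54, -157 and -227 from their starts) and 1 with TGANTCA (at -50, window chr6:30888438-30888687). Of all 35095 windows of that length in the table, 17.5% hold CAGGTG and 6.57% hold TGANTCA, against 11 (17.5%) and 6 (9.52%) of the 63 receptor windows. The GC box letters GGGCGG were in 41 receptor windows (65.1%) and 42.6% of all windows, and CCAAT in 21 (33.3%) and 32%. Genes with several starts, such as DDR1 and EPHB2, count once per window, so these are shares of windows and not of genes. All are letter matches only, and the data hold no measure of which start is used or what binds there.

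The VEGF receptors are known from endothelium. KDR (chromosome 4, 55078259 to 55125595, minus strand), the main signalling receptor for VEGFA, was the only one with reads in these cells. It stood at 3.96, 3.38 and 2.43 CPM in DMSO and 5.35, 5.20 and 5.45 CPM with Azeliragon. All 3 Azeliragon libraries were above all DMSO libraries and lay close together, and the rise was 1.63-fold (3.26 ± 0.77 to 5.33 ± 0.12 CPM, SD, n = 3 each; log2 fold change 0.71, SE 0.17, 95% interval 0.33 to 1.09; edgeR adjusted p = 0.0324). The call was lost without DMSO b (adjusted p = 0.100), DMSO c (0.0691), Azeliragon a (0.124), Azeliragon b (0.0985) or Azeliragon c (0.122), with log2 fold changes of 0.54 to 0.73, and the log2 fold change was 0.87 without DMSO a. FLT1 and FLT4, the other VEGF receptors, had no reads. TIE1, an orphan receptor that modulates angiopoietin signalling, was at 0.908, 1.34 and 0.881 CPM in DMSO and 0.768, 0.757 and 0.747 CPM with Azeliragon (log2 fold change -0.46; adjusted p = 0.436), and TEK, the angiopoietin receptor, had 3 reads in DMSO c.

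CSF1R, PDGFRB and KDR are markers of myeloid cells, pericytes and endothelium, so the defining genes of those cells were read beside them. Of 6 myeloid markers 2, CSF3R and AIF1, had no reads, PTPRC had 3 reads in DMSO b alone, and the summed level was 1.37 to 1.74 CPM in DMSO and 0.965 to 1.31 CPM with Azeliragon, most of it CD14. CD14 was at 1.15, 1.48 and 1.44 CPM in DMSO and 0.907, 1.05 and 0.747 CPM with Azeliragon, lower without overlap as CSF1R was, and did not pass (log2 fold change -0.58, SE 0.27; edgeR adjusted p = 0.247). Of 6 fibroblast and pericyte markers 4 were tested, COL1A1 fell (8.13 to 4.77 CPM), CSPG4 rose (17.0 to 24.9 CPM), DCN and COL3A1 had 3 and 4 reads in all, and the sums were 23.9 to 32.0 and 30.6 to 32.2 CPM. Of 6 endothelial markers ERG had no reads, PECAM1, CDH5 and CLDN5 were below 0.4 CPM in every library, and the sums of 93.9 to 97.9 and 120 to 122 CPM were nearly all ROBO4. VWF had 2, 3 and 9 reads in DMSO and 15, 11 and 28 with Azeliragon (0.107 ± 0.088 and 0.425 ± 0.22 CPM, SD, n = 3 each). It was higher without overlap, as KDR was, and did not pass (log2 fold change 1.96, SE 0.64; edgeR adjusted p = 0.103). PECAM1, on 66 reads, went the other way, at 0.326 CPM in DMSO and 0.178 CPM with Azeliragon. Its conditions overlapped (log2 fold change -0.86, SE 0.53; edgeR adjusted p = 0.398). Of the untested markers, CLDN5 was lower (0.176 to 0.132 CPM) and CDH5 higher (0.0682 to 0.147 CPM), both with overlap. ROBO4 was at 95.4 ± 2.1 CPM in DMSO and rose to 120 ± 1.0 CPM (edgeR adjusted p = 0.00627; SD, n = 3 each), and 1192 of its exon bases are shared with genes on the opposite strand. COL1A1 was called in all 16 other settings, ROBO4 lost its call without Azeliragon c (adjusted p = 0.0594), and CSPG4 lost it with library totals (0.0588) or without any 1 library other than DMSO a (0.0750 to 0.179). The part of these markers in the CSF1R, PDGFRB and KDR results was not tested.

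EPH receptors bind ephrins on neighbouring cells and signal in contact, attraction and repulsion. EPHB2 (chromosome 1, 22710839 to 22921500, plus strand) was at 90.7, 87.4 and 85.5 CPM in DMSO and 67.9, 69.4 and 72.6 CPM with Azeliragon. Replicates of a condition lay within a narrow band, well apart from the other condition. The fall was 1.26-fold (87.9 ± 2.6 to 70.0 ± 2.4 CPM, SD, n = 3 each; log2 fold change -0.33, SE 0.06, 95% interval -0.47 to -0.19; edgeR adjusted p = 0.00899). It was lost without DMSO b (adjusted p = 0.0546), Azeliragon a (0.0739) or Azeliragon b (0.0699), at log2 fold changes of -0.33 to -0.31.

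EPHA2 (chromosome 1, 16124337 to 16156087, minus strand), the most abundant receptor, was at 505, 471 and 493 CPM in DMSO and 467, 467 and 469 CPM with Azeliragon. The Azeliragon libraries were just below the lowest DMSO library, but the log2 fold change of -0.07 (95% interval -0.19 to 0.06) did not pass (edgeR adjusted p = 0.566). EPHB4 overlapped between conditions, at 114, 105 and 105 CPM and 103, 105 and 98.3 CPM (log2 fold change -0.08; adjusted p = 0.532). EPHA4, a receptor for both ephrin classes, was at 3.74, 2.71 and 1.83 CPM in DMSO and 1.12, 1.97 and 1.90 CPM with Azeliragon. Its log2 fold change of -0.73 had a 95% interval of -1.36 to -0.10 and an adjusted p of 0.173, and the conditions overlapped. With no filter on low counts its adjusted p was 0.0233. EPHA1 was near 1 CPM throughout (0.975, 1.14 and 1.92 CPM, then 1.19, 1.65 and 1.23 CPM; adjusted p = 0.988). EPHB3 reached 1.2 CPM in DMSO a and 0.256 to 0.665 CPM in the other 5 libraries (adjusted p = 0.543). EPHB6, a kinase-dead member, had 4, 16 and 7 reads in DMSO and 0, 0 and 4 with Azeliragon, EPHB1 had 13 reads, EPHA7 had 4 reads in DMSO c and EPHA3 had none.

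DDR1 and DDR2 bind collagen. DDR1 (chromosome 6, 30876421 to 30900156, plus strand), the form usual in epithelial cells, was at 93.9, 86.8 and 84.9 CPM in DMSO and 66.3, 64.8 and 64.2 CPM with Azeliragon. The gap between the conditions was far wider than either group's range. The fall was 1.36-fold (88.6 ± 4.7 to 65.1 ± 1.1 CPM, SD, n = 3 each; log2 fold change -0.44, SE 0.07, 95% interval -0.59 to -0.30; edgeR adjusted p = 0.00177) and was called in all 16 other settings, at -0.47 to -0.37. DDR2, the form usual in mesenchymal cells, was at 2.02, 1.14 and 1.16 CPM and 2.09, 1.88 and 2.17 CPM (log2 fold change 0.51, 95% interval -0.05 to 1.07; adjusted p = 0.298). The conditions overlapped through DMSO a, and without that library the log2 fold change was 0.83 (adjusted p = 0.0223). It was 0.64 and did not pass (adjusted p = 0.0791) if the trend on GC content and length was also removed.

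IGF1R and INSR bind insulin-like growth factors and insulin. IGF1R was at 59.7, 40.4 and 39.9 CPM in DMSO and 55.8, 55.6 and 62.7 CPM with Azeliragon. DMSO a lay among the Azeliragon libraries while DMSO b and c were below them all, and the log2 fold change of 0.31 (95% interval 0.02 to 0.61) did not pass (edgeR adjusted p = 0.209). Without DMSO a it was 0.53 (adjusted p = 4.55e-06), with no filter on low counts the adjusted p was 0.00597, and removal of the GC and length trend together with DMSO a gave 0.31 (adjusted p = 8.28e-04). INSR overlapped between conditions, at 22.7, 21.6 and 21.4 CPM and 22.4, 23.0 and 24.1 CPM (log2 fold change 0.08; adjusted p = 0.629).

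MET, the HGF receptor, and MST1R, its relative that binds MST1, did not pass. MET was at 64.1, 52.6 and 54.4 CPM in DMSO and 62.9, 60.6 and 61.9 CPM with Azeliragon (log2 fold change 0.11, 95% interval -0.06 to 0.29; adjusted p = 0.474). Again DMSO a was the highest DMSO library, and without it the log2 fold change was 0.21 (adjusted p = 0.0169). It was 0.08 and did not pass (adjusted p = 0.353) if the trend on GC content and length was also removed. MST1R was at 17.0, 15.4 and 14.8 CPM and 15.9, 16.2 and 18.2 CPM (adjusted p = 0.642). The TAM receptors TYRO3 and MERTK, which bind GAS6 and protein S, were higher in every Azeliragon library than in any DMSO library without passing. TYRO3 was at 49.4, 48.8 and 48.0 CPM and 51.5, 52.4 and 56.4 CPM (log2 fold change 0.13; adjusted p = 0.309), and MERTK was at 9.24, 9.24 and 7.79 CPM and 10.9, 11 and 9.65 CPM (log2 fold change 0.26; adjusted p = 0.212).

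None of the receptors that bind WNT proteins or act beside their receptors passed. PTK7 was at 101, 98.0 and 98.0 CPM in DMSO and 90.3, 92.5 and 93.3 CPM with Azeliragon, without overlap but with a log2 fold change of only -0.11 (95% interval -0.24 to 0.03; edgeR adjusted p = 0.355). RYK was at 39.5, 39.1 and 37.9 CPM and 40.5, 40.5 and 37.8 CPM (adjusted p = 0.873). ROR1, the WNT5A receptor, was at 20.6, 16.3 and 14.3 CPM and 18.6, 19.2 and 21.5 CPM (log2 fold change 0.21; adjusted p = 0.387). Its conditions overlapped through DMSO a, without which the log2 fold change was 0.37 (adjusted p = 0.00808), or 0.26 (adjusted p = 0.0375) if the GC and length trend was removed as well. ROR2 had no reads. LTK, the leukocyte tyrosine kinase, was at 5.14, 6.0 and 6.79 CPM and 5.70, 3.74 and 5.74 CPM (log2 fold change -0.24; adjusted p = 0.487), and its relative ALK stayed between 0.0927 and 0.443 CPM (adjusted p = 0.731). The neurotrophin receptors NTRK2 and NTRK3, RET, the receptor for the GDNF family, and ROS1 had 52, 12, 2 and 0 reads.

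The number of receptors called depended on single libraries. Without DMSO a 10 of 27 tested receptors passed, 6 higher and 4 lower, the additions being IGF1R, ROR1, MET and DDR2, at a background of 23.7% of all genes (12.9% higher and 10.8% lower). With the GC and length trend removed as well 8 of 27 passed, 4 higher and 4 lower, and MET and DDR2 were not among them. In that setting 3735 of 16508 genes passed, 1969 higher and 1766 lower. Leaving out Azeliragon a, Azeliragon b or DMSO b left 3, all lower, leaving out Azeliragon c left 4, all lower, and leaving out DMSO c left 5, at backgrounds of 2.68%, 3.01%, 2.86%, 2.70% and 4.94% of all genes in that order. The 24 expressed receptors varied more between DMSO libraries, with a median coefficient of variation of 11.3%, than between Azeliragon libraries, at 5.01%, and 17 of the 24 had the higher value in DMSO. This was not particular to receptors. Over all genes, chi-square per degree of freedom was 27.2 and 45.1 for DMSO a against b and c, and 8.89 for DMSO b against c. Pairs of Azeliragon libraries gave 4.60 to 7.15.

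Receptor transcripts are long, and the fold changes of long and short genes differed in these libraries. The median longest transcript of the 26 tested receptors was 5495 bases, against 3685 in 12768 tested protein-coding genes. Across the 26 receptors log2 fold change correlated with log2 transcript length at 0.42, and with GC content at -0.42. Across the protein-coding genes these were 0.17 and -0.12. Without DMSO a they were 0.44 and -0.35 for receptors and 0.28 and -0.14 for protein-coding genes. All points come from the same libraries and genes are not independent replicates, so these values are descriptions. Once trends on GC content and length were removed library by library, the receptors called were still 2 higher and 4 lower, where all genes were split into 946 higher and 745 lower in place of 442 and 567.

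**Figure D4:**
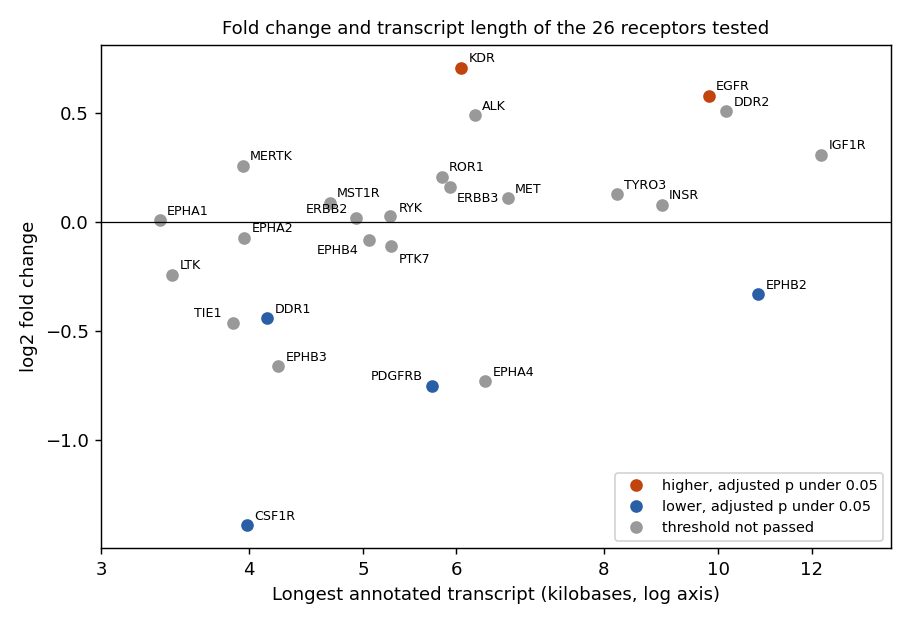
Log2 fold change (Azeliragon over DMSO) against the longest annotated transcript (kilobases, log axis) of the 26 receptors tested, coloured as called higher (orange), called lower (blue) or not passed (grey). Of the 6 receptors with a transcript above 8 kilobases 5 lie above 0 and EPHB2 lies at -0.33, and CSF1R is lowest at -1.39.

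Among the genes for ligands of these receptors, TGFA, CSF1 and PSPN fell and none rose. Of 51 ligand genes 34 were tested, 0 were higher and 3 lower (8.82%, at a background of 6.27%), 31 did not pass, and the median log2 fold change was -0.20. At an unadjusted p under 0.05 there were 14 of the 34, where 20.4% of all genes were under it. DESeq2 called 0 higher and 6 lower, against 9.57% of all genes (4.65% higher and 4.92% lower), and without DMSO a edgeR called 2 higher and 9 lower, against 23.7%. TGFA, an EGFR ligand, was at 78.0, 69.1 and 71.3 CPM in DMSO and 47.2, 46.0 and 43.9 CPM with Azeliragon. The conditions were far apart, and the fall was 1.59-fold (72.8 ± 4.6 to 45.7 ± 1.7 CPM, SD, n = 3 each; log2 fold change -0.67, SE 0.07; edgeR adjusted p = 1.83e-04). CSF1, the CSF1R ligand, was at 245, 225 and 232 CPM and 152, 151 and 166 CPM, a 1.5-fold fall (234 ± 10 to 156 ± 8.0 CPM, SD, n = 3 each; log2 fold change -0.58, SE 0.06; edgeR adjusted p = 2.15e-04). Both were called in all 16 other settings. PSPN, a ligand of the GDNF family that signals through RET, was at 5.21, 6.42 and 6.10 CPM and 4.21, 4.36 and 3.76 CPM (log2 fold change -0.52; adjusted p = 0.0455), was called in 8 of 16 other settings and lost its call without any 1 of the libraries other than DMSO a (adjusted p up to 0.200) and with limma-voom (0.0582).

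The ligand genes with the highest CPM that did not pass were GAS6, VEGFA and HBEGF. GAS6, the TAM ligand, was at 484, 510 and 590 CPM in DMSO and 393, 449 and 445 CPM with Azeliragon, without overlap (log2 fold change -0.30; edgeR adjusted p = 0.0537). It passed in 8 of 16 other settings, among them without DMSO a (-0.36; adjusted p = 7.77e-05), and 421 of its exon bases are shared with GAS6-AS1. VEGFA was at 196, 182 and 180 CPM and 171, 163 and 165 CPM (log2 fold change -0.16; adjusted p = 0.159), and with the GC and length trend removed it was called at -0.26 (adjusted p = 0.0209). HBEGF, another EGFR ligand, overlapped at 122, 132 and 134 CPM and 136, 136 and 131 CPM (log2 fold change 0.05; adjusted p = 0.704).

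**Figure D5:**
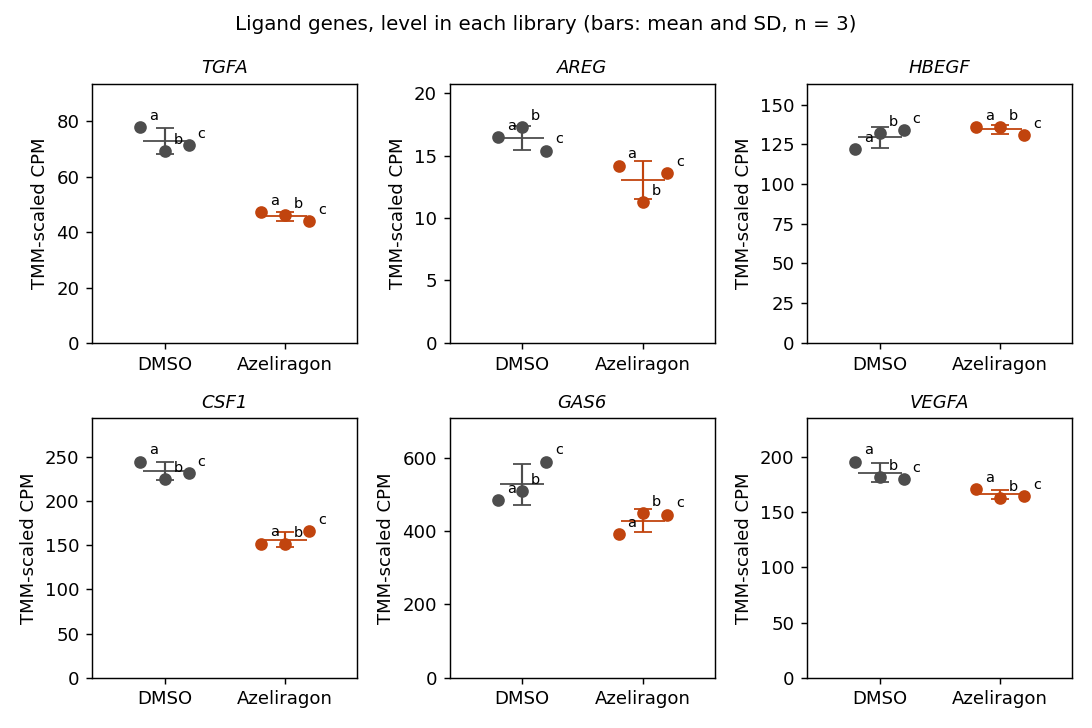
Level in each library (TMM-scaled CPM, linear axes from 0, letters a, b and c) of 6 ligand genes, with bars for the mean and SD of 3 libraries: the EGFR ligands TGFA, AREG and HBEGF, the CSF1R ligand CSF1, the TAM ligand GAS6 and the KDR ligand VEGFA. TGFA and CSF1 passed the threshold, AREG, GAS6 and VEGFA show no overlap without passing, and HBEGF overlaps.

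Several other ligand genes, named after their values were seen, show which pairs the cells held. The EGFR ligands AREG (16.4 ± 0.95 to 13.0 ± 1.5 CPM) and EREG (18.1 ± 2.2 to 14.3 ± 0.85 CPM) each had a log2 fold change of -0.34 and no overlap (SD, n = 3 each; edgeR adjusted p = 0.0868 and 0.0859). BTC was low, at 0.975, 2.46 and 1.62 CPM in DMSO and 0.837, 0.459 and 0.699 CPM with Azeliragon (adjusted p = 0.0539). AREG passed in 2 of 16 other settings, EREG in 4 of 16 and BTC in 5 of 15. NRG1, which binds ERBB3 and ERBB4, was at 15.4 ± 0.61 and 18.2 ± 1.2 CPM (SD, n = 3 each; adjusted p = 0.153). HGF, the MET ligand, had no reads. IGF1, an IGF1R ligand, had none assigned, but 6693 of its 8122 exon bases are shared with HELLPAR on the opposite strand. IGF2 and INS also had none assigned, but 6977 of the 6979 exon bases of IGF2 and 246 of those of INS are shared with genes on the same strand. The strand setting and the handling of reads that match several genes are not given. The zeros of IGF1, IGF2 and INS therefore do not show that the transcripts were missing. WNT5A, a ligand of ROR1, had 5 reads in DMSO c. Ephrin genes were expressed beside the EPH receptors, among them EFNB2 (23.6 ± 1.5 to 20.7 ± 0.58 CPM; adjusted p = 0.231) and EFNA5 (16 ± 0.95 to 14.9 ± 1.3 CPM; adjusted p = 0.585), and none of the 7 ephrin genes tested passed. PDGFC, a PDGFRA ligand, was at 71.9 ± 3.1 and 71.3 ± 1.7 CPM (SD, n = 3 each; adjusted p = 0.948), while PDGFRA itself had no reads.

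Among adaptors and effectors that receptors recruit, GAB2 and IRS2 rose and none fell. Of 29 such genes 26 were tested, 2 were higher (7.69%, at a background of 6.27%) and 0 lower, and the median log2 fold change was 0.13. It was above 0 for 22 and below 0 for 4, where 49.1% of all genes were above 0. At an unadjusted p under 0.05 there were 6 of the 26, near the 20.4% of all genes, and DESeq2 called 3 higher and 0 lower of 24, against 9.57% of all genes. GAB2, a docking protein that feeds PI3-kinase and SHP2, was at 35.8, 29.9 and 29.1 CPM in DMSO and 44.4, 42.2 and 42.9 CPM with Azeliragon, a 1.37-fold rise (log2 fold change 0.45, SE 0.09; edgeR adjusted p = 0.00987). The call ended without DMSO b (adjusted p = 0.0710) or Azeliragon a (0.0649). IRS2, the docking protein of IGF1R and INSR, was at 76.4, 57.6 and 52.6 CPM and 84.8, 90.6 and 97.9 CPM, a 1.46-fold rise (log2 fold change 0.55, SE 0.12; edgeR adjusted p = 0.0156). It was lost without DMSO b (0.107) or Azeliragon a (0.0506), b (0.0668) or c (0.0858). The abundant adaptors SHC1 (234 to 238 CPM), GRB2 (203 to 216 CPM) and PLCG1 (172 to 189 CPM) did not pass, at log2 fold changes of 0.02, 0.09 and 0.14. The count was 11 without DMSO a, 9 higher and 2 lower, where 23.7% of all genes were called (12.9% higher and 10.8% lower). It was 0 without DMSO b or Azeliragon a, at backgrounds of 2.86% and 2.68%. Leaving out Azeliragon b or c left 1, at backgrounds of 3.01% and 2.70%.

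Negative regulators were divided. Of 29 such genes 27 were tested, and 2 were higher and 2 lower (14.8%, at a background of 6.27%). The median log2 fold change was -0.00. ERRFI1, whose protein binds and inhibits the EGFR kinase, was at 174, 163 and 160 CPM in DMSO and 212, 203 and 203 CPM with Azeliragon, a 1.24-fold rise (log2 fold change 0.31, SE 0.06; edgeR adjusted p = 0.00912). PTPRF, a receptor phosphatase, was at 789, 591 and 598 CPM and 930, 901 and 941 CPM, a 1.4-fold rise (log2 fold change 0.49, SE 0.10; adjusted p = 0.0107). DMSO a was the closest DMSO library to Azeliragon for both. PTPRJ, a receptor phosphatase that acts on several of these receptors, was at 108, 96.6 and 91.2 CPM and 77.4, 70.4 and 74.0 CPM, a 1.34-fold fall (log2 fold change -0.42, SE 0.08; adjusted p = 0.00648). PTPRK, known to dephosphorylate EGFR, was at 74.8, 67.7 and 63.1 CPM and 58.1, 53.8 and 56.6 CPM, a 1.22-fold fall that was close to the threshold (log2 fold change -0.29; adjusted p = 0.0483). PTPN1, INPPL1 and SH2B3 did not pass, at log2 fold changes of 0.04, 0.02 and -0.09. A single call was left without DMSO b (background 2.86%) or without any 1 Azeliragon library (2.68% to 3.01%). Without DMSO a 8 were made, at a background of 23.7%. ERRFI1 was lost without DMSO b (0.0729) or any Azeliragon library (0.0544 to 0.0697), PTPRF without Azeliragon a (0.0642), Azeliragon c (0.0586) or DMSO b (0.0802), PTPRJ without Azeliragon b (0.0565), and PTPRK without DMSO b (0.158) or any Azeliragon library (0.136 to 0.220) and with library totals (0.0788).

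The co-receptor list was broad, and not all of its members bind ligand beside a receptor tyrosine kinase. Of its 10 genes 6 were tested, and 1 was higher and 1 lower (33.3% of a short list, at a background of 6.27%). The median log2 fold change was -0.13. NRP2, a neuropilin that binds VEGFA and VEGFC beside the VEGF receptors, was at 86.2, 68.5 and 62.5 CPM in DMSO and 55.1, 48.3 and 51.8 CPM with Azeliragon, a 1.4-fold fall (log2 fold change -0.48, SE 0.11; edgeR adjusted p = 0.0185). SORT1, which carries neurotrophin receptors, was at 145, 120 and 110 CPM and 164, 156 and 159 CPM, a 1.28-fold rise (log2 fold change 0.36, SE 0.09; adjusted p = 0.0366). Leaving out DMSO b or any 1 Azeliragon library ended both calls (NRP2 adjusted p 0.0574 to 0.113, SORT1 0.119 to 0.188), and leaving out DMSO c (0.0759) or scaling by library totals (0.0664) ended that of SORT1. IGF2R, the scavenger receptor of IGF2, was at 280, 194 and 204 CPM and 296, 269 and 296 CPM and did not pass (log2 fold change 0.35; adjusted p = 0.108), but did so in 7 of 16 other settings, among them without DMSO a (0.53; adjusted p = 6.74e-08). NRP1 was at 240, 216 and 200 CPM and 196, 173 and 189 CPM, below every DMSO library (log2 fold change -0.24; adjusted p = 0.105), and passed without DMSO a (-0.16; adjusted p = 0.0339) or DMSO c (-0.30; adjusted p = 0.0323) and with the GC and length trend removed (-0.28; adjusted p = 0.00392). TSPAN12 overlapped between conditions at 6.33 and 6.21 CPM. Exon bases shared with a gene on the opposite strand numbered 561 in NRP1, 147 in NRP2, 188 in VEGFA, 173 in PTPRK, 155 in ERRFI1, 115 in IRS2 and 104 in PSPN, so these counts are uncertain to that extent. The same holds for other genes named here. Among them are EFNB2 (1313 bases), CSPG4 (563), PLCG1 (538), MST1R (356), EPHA4 (353) and SHC1 (326, with 335 more on its own strand).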

How the data were processed

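The deposited file holds raw counts per gene in 6 columns, 1 per library, and no per-sample column of another kind. Libraries were made from polyadenylated RNA, per the labels' protocols. The tools STAR 2.6.1d, featureCounts 1.5.0-p3 and limma and the build GRCh38 appear, per the submitters' processing notes, with no role attached. Annotation, strand setting and handling of reads with several matches were not given in the sources used here. A total of 2 entries with numeric names (0% of counts) were left out, and 58722 of 58735 names matched GENCODE 29, which gave coordinates, lengths and GC content.

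Genes were filtered with filterByExpr, scaled by TMM and tested with glmQLFit and glmQLFTest of edgeR 4.0.16 (R 4.3.3), with treatment as the only term and all 6 libraries. TPM was computed from counts and merged exon lengths. The receptors, the ligand, adaptor, negative regulator, co-receptor and marker lists and the settings were chosen with earlier results of these data known. Every receptor is accounted for, and from each other list up to 6 called genes and the 3 most abundant others were named by rule. A further 12 ligand genes were named after their values were seen, and the marker genes are named as lists. Other settings were RLE factors, library totals, no filter, a filter of 1 CPM in 3 libraries with a mean count of 50, limma-voom (limma 3.58.1), DESeq2 1.42.0, a block for the replicate letter, omission of single libraries, and a correction of every library for GC content and length, which was also run without DMSO a after seeing the data. Every pair of libraries of a condition differed beyond sampling noise (chi-square per degree of freedom at least 4.60). On simulated counts the test called 26.5% of 49 genes changed 1.3-fold, 51.0% of 49 changed 1.5-fold and 73.9% of 46 changed 2-fold. It called 0.0961% of 15609 unchanged genes. Whether these shares hold for the measured libraries, where DMSO a lay apart from DMSO b and c, was not tested. Python 3.11.15 and matplotlib 3.10.9 drew the figures.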

Additional observations from a re-analysis of the deposited data

How the results depend on the processing

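No tested receptor, and none of the tested ligand, adaptor, negative regulator and co-receptor genes named, had a call of opposite sign under any setting that gave it a value, and the number of expressed receptors stayed between 18 and 25. Over all genes the count of 1009 of 16081 became 1685 of 29132 with no filter on low counts. It was 1420 of 14833 with DESeq2 and 932 of 16081 with library totals. With the GC and length trend removed it was 1691 of 16081, or 1544 of 16081 with the replicate block as well. With that removal and without DMSO a it was 3735 of 16508. With each library left out it ran from 445 of 16587 (2.68%) to 3916 of 16508 (23.7%). The counts of list members that follow are to be read beside these. The receptor count of 6 of 26 was 3 to 10 with each library left out. It was 8 of 35 with no filter, and 8 of 27 with the trend removed and without DMSO a. Ligands (3 of 34) gave 7 of 45 with no filter, 6 of 34 with DESeq2 and 7 of 34 with the trend removed. They gave 13 of 34 with that removal and without DMSO a, and 2 to 11 with each library left out. Adaptors (2 of 26) gave 4 of 28 with no filter, 4 of 26 with the trend removed and 4 of 26 with that removal and the replicate block. They gave 8 of 26 with that removal and without DMSO a, and 0 to 11 with each library left out. Negative regulators (4 of 27) gave 10 of 28 with the trend removed and without DMSO a, and 1 to 8 with each library left out. Co-receptors (2 of 6) gave 1 of 6 with library totals and 4 of 8 with no filter. They gave 4 of 6 with the trend removed (also with the replicate block or without DMSO a), and 0 to 4 with each library left out. The cause of these shifts was not tested. The replicate block gave 908 of 16081 genes and 6 of 26 receptors. It gave 3 of 34 ligands, 2 of 26 adaptors, 3 of 27 negative regulators and 3 of 6 co-receptors. Whether the letters pair libraries is not given in the labels. Deviations of same-lettered libraries correlated at 0.03, 0.02 and -0.04, and not every library correlated best with its own letter. With 3 libraries a condition these values do not decide whether the letters were paired. Under the block PSPN (adjusted p = 0.0691) and PTPRK (0.0570) were not called, and GAS6 (0.0273) and IGF2R (0.0334) were. With 3 libraries a condition, the interval of each receptor bounds what could be seen, and below 0.0723 CPM a receptor cannot be told from absent.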
